A study of Mus musculus with 4 samples.

Results

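The solute carriers of mouse embryonic stem cells (ESCs) and of their derivatives after the ESC→EpiSC transition were taken as every protein-coding gene with a symbol of the form Slc, number, a, number among the 15462 genes of the normalized table, without the families Slc2, Slc16 and Slc25 and without Slc38a4. Of 236 such symbols, 8 Slc2, 13 Slc16 and 39 Slc25 genes and Slc38a4 were left out, and 111 of the 175 genes that were kept had at least 200 raw counts in at least 1 library. These 111 genes belong to 39 families, and they are the members described here. The other 64 genes stayed under the minimum, with a highest count of 24 to 193 and a median of 70. Just inside the minimum were Slc26a10 (highest count 227), Slc39a13 (214) and Slc44a4 (207), and just outside it Slc43a3 (193), Slc36a4 (191) and Slc35a5 (188). The minimum used the counts themselves: 70 members reached it in all 4 libraries, 13 only in F/A and 15 only in serum/LIF, and a member of these last groups passed through the counts of a single medium. Not every member works at the plasma membrane. Of the 111, 31 were listed as proteins known mainly from lysosomes, endosomes, vesicles, the ER, the Golgi or peroxisomes. The 80 members outside this list may include other carriers of internal membranes.

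Solute carriers are membrane proteins that move amino acids, ions, metals, vitamins, nucleosides and lipids across membranes, as facilitators, as exchangers, or coupled to the gradient of sodium or protons. Several amino acid exchangers reach the surface only when joined to the heavy chain Slc3a2. Growing stem cells take up essential amino acids, glutamine, arginine, phosphate and nucleosides through these carriers, and many carriers of the nervous system, the kidney or macrophages belong to the same families.

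WT mouse ESCs of the R1 line, strain 129/Sv, and R1 ESCs that lack Cripto (Cripto KO) were kept in serum/LIF or moved to F/A. For F/A they were seeded at low density in N2B27 with Activin A at 20 ng per ml and bFGF for 6 days. In the study this condition serves to turn WT ESCs into epiblast stem cells (EpiSCs). Total RNA of each of these 4 cultures gave 1 library, so the values below come without replicate error and each difference sets a single culture against another. Serum/LIF is a serum-containing DMEM and N2B27 a serum-free medium, so the added factors and the base medium changed together and cannot be told apart. Which Cripto KO clone was sequenced is not given in the sources used here. Tdgf1, the gene of Cripto, had 18714 raw counts in serum/LIF WT, 945 in serum/LIF Cripto KO, 1572 in F/A WT, with 86 in F/A Cripto KO. Markers of naive ESCs summed to 3265 and 2893 counts per 1000000 library counts (cpm) in serum/LIF WT and Cripto KO and to 28.9 and 45.5 in F/A. Among them Zfp42 had 19853 and 15561 raw counts in serum/LIF and 28 and 14 in F/A, and Esrrb had 15699 and 16258 in serum/LIF and 13 and 8 in F/A. Primed epiblast markers such as Fgf5 and T summed to 169 and 185 in serum/LIF, 1227 in F/A WT, with 638 in F/A Cripto KO. General pluripotency markers summed to 3417 and 3124 in serum/LIF and to 1115 and 1063 in F/A. Among them Pou5f1 had 26857 and 21995 raw counts in serum/LIF and 1810 and 1216 in F/A. Nanog had 11633 and 7270 in serum/LIF and 259 and 126 in F/A. Sox2 and Utf1 were also lower in F/A, whereas Lin28a was higher, at 13882 and 14480 against 3580 and 5542. Libraries held 15230856 to 17315442 counts. In F/A Cripto KO only 3 genes had an odd count, against 53.1% to 53.6% of the genes with counts in the other libraries, and its counts were therefore halved wherever a counting interval was computed.

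Below, values in the 4 libraries are full quantile-normalized counts, the unit of the authors' table, in the fixed order serum/LIF WT, serum/LIF Cripto KO, F/A WT and F/A Cripto KO, unless raw counts are named. A log2 change is taken between these values, with 0 replaced by 0.5. The interval in parentheses is a 95% Clopper-Pearson interval of the ratio of raw counts scaled by library totals. It covers counting error only, and since the change comes from the normalized values it need not lie in the middle. A gene was called higher or lower at a change of at least 2-fold with the whole interval on the same side of no change. With 1 library per condition no comparison was tested, and a call compares 2 libraries, not 2 conditions. In bulk RNA, fewer cells of a type and less RNA per cell cannot be told apart. Genes named beyond the naming rule were chosen after their values were seen.

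The members took a similar share of the RNA in each culture. They held 0.659% of all counts in serum/LIF WT, 0.690% in serum/LIF Cripto KO, 0.743% in F/A WT, with 0.671% in F/A Cripto KO. The 10 members of highest level per length, given as counts per kilobase of merged exons per 1000000 library counts, held 41.8% to 44.8% of the members' counts. Most of them carry amino acids. Slc3a2, the heavy chain of the heterodimeric exchangers, was first at levels of 178 in serum/LIF WT, 191 in serum/LIF Cripto KO, 126 in F/A WT, with 136 in F/A Cripto KO. Its light chain Slc7a5, which brings in leucine and other large neutral amino acids, came next at 102, 118, 167 and 176. The order of these partners was thus turned round between the media in both genotypes, with Slc3a2 above Slc7a5 in serum/LIF and below it in F/A. Slc38a2, a sodium-coupled carrier of glutamine and alanine, stood at levels of 81.4, 90.4, 90.8 and 74.3. The arginine carriers Slc7a3 and Slc7a1 followed at mean levels of 53.8 and 53.1 over the 4 libraries, then the phosphate carrier Slc20a1 at 49.2, the nucleoside carrier Slc29a1 at 44.6, the neutral amino acid exchanger Slc1a4 at 42.5, the light chain Slc7a7 at 41.3 and the glutamine carrier Slc38a1 at 34.7. The median mean level of the members was 6.59 and the lowest 1.002.

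**Figure D1:**
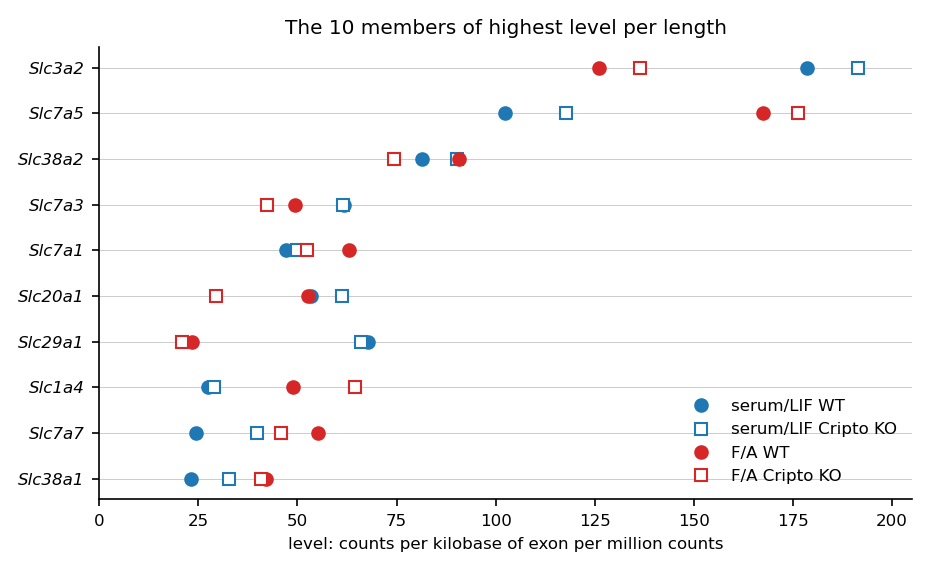
The level of the 10 members of highest mean level, in counts per kilobase of exon per 1000000 library counts, with 1 point for each of the 4 libraries and no replicate error. Slc3a2 lies between 126 and 191 and Slc7a5 between 102 and 176, while the nucleoside carrier Slc29a1 separates the media, at 66.1 to 67.8 in serum/LIF and 21.0 to 23.5 in F/A.

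Between serum/LIF and F/A, 43 of the 111 members were called in WT cells and as many in Cripto KO cells. In WT, 21 members (18.9%) were higher in F/A and 22 (19.8%) lower. Among the 10396 protein-coding genes with the same minimum count, 18.5% were called higher and 17.3% lower, so the WT shares lay near the background. In Cripto KO, 15 members (13.5%) were higher, against a background of 16.5%, and 28 (25.2%) lower, against 15.1%. The median log2 change of the members was −0.05 in WT and −0.21 in Cripto KO, and that of the background −0.10 and −0.07. Both transitions called 30 members, 69.8% of the calls of each, and all 30 went the same way, 11 higher and 19 lower. In the background, 2647 genes were called in both, 71.3% of the calls in WT and 80.6% of those in Cripto KO, and 99.8% of them went the same way. Another 13 were called in WT only and 13 in Cripto KO only, of which 13 and 12 had the same sign in the other genotype. Across the 111 members the changes of both transitions, which share no library, were correlated, with r of 0.93 (Pearson) and rho of 0.90 (Spearman), near the 0.94 and 0.87 across the background. This is a description across genes, which are not replicates, and the libraries of a medium also share that medium. Members that reached the minimum count in a single medium, 13 in F/A and 15 in serum/LIF, enter these shares of calls and those by role below.

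**Figure D2:**
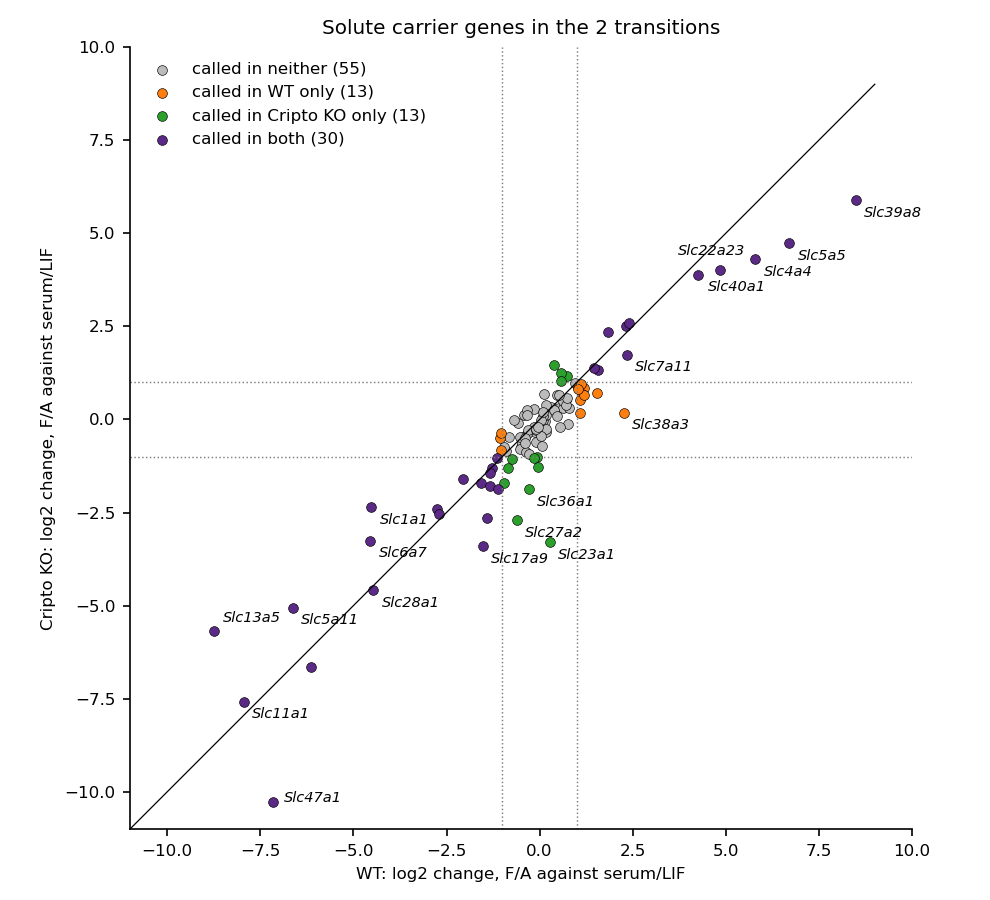
Log2 change of F/A against serum/LIF in WT (horizontal) and Cripto KO (vertical) for the 111 members, coloured by call, with dotted lines at 2-fold and a solid line of equal change. The 30 members called in both sit in the lower left and upper right, and Slc39a8, Slc23a1 and Slc17a9 are among those below the line of equal change; the Cripto KO value of Slc47a1 rests on a count of 0 replaced by 0.5.

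**Figure D3:**
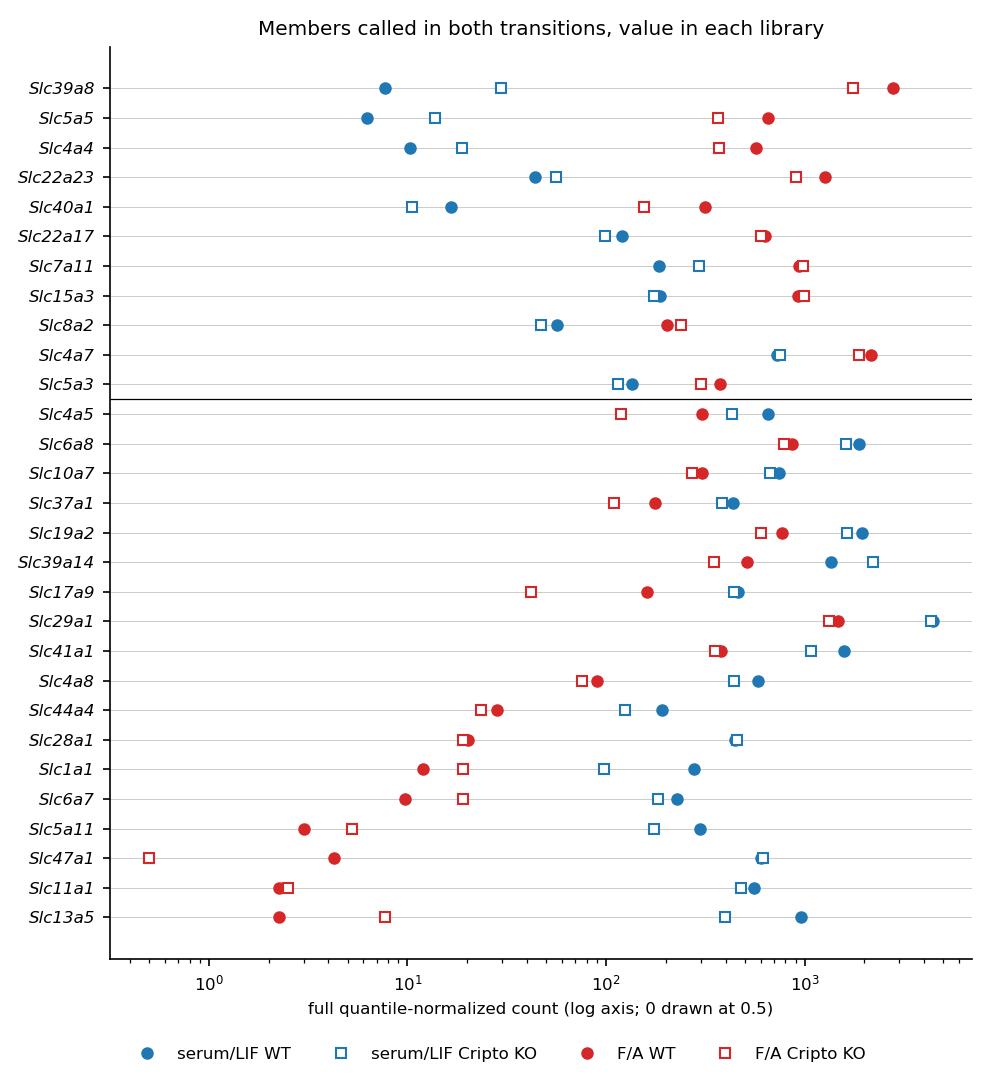
Normalized count (log axis) of members called in both transitions and reported here, with 1 point per library; the 11 above the horizontal line were higher in F/A and those below it lower. For every gene shown, both serum/LIF points lie on the same side of both F/A points.

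Metal carriers included the member with the highest log2 change of both transitions, Slc39a8. Among the 23 members for metals and haem, 5 (21.7%) were higher and 5 lower in WT, against 18.5% and 17.3% of the background. In Cripto KO 2 (8.70%) were higher and 4 (17.4%) lower, against 16.5% and 15.1%. Slc39a8, an importer of zinc and manganese (ENSMUSG00000053897, chr3:135488243-135551536 on the plus strand of NCBIM37), had normalized counts of 7.75, 29.5, 2788 and 1745. It was low in both serum/LIF libraries and abundant in both F/A libraries, with a log2 change of 8.49 (7.40 to 9.34) for WT and 5.89 (5.39 to 6.51) for Cripto KO. Slc39a14, its close relative in the same family, which imports zinc, iron and manganese, went the other way. Its values were 1353, 2202, 512 and 349, a log2 change of −1.40 for WT and −2.66 for Cripto KO. Slc40a1, or ferroportin, the exporter of iron (ENSMUSG00000025993, chr1:45964915-45982439 on the minus strand), had values of 16.5, 10.5, 314.5 and 155. The log2 change was 4.25 (3.46 to 4.85) for WT and 3.89 (2.94 to 4.92) for Cripto KO. Slc11a1, a metal carrier of endosomes and lysosomes best known from macrophages, had 582 and 463 raw counts in the serum/LIF libraries and 2 in each F/A library. Its log2 change was −7.95 (−11.05 to −6.14) for WT and −7.58 (−13.1 to −5.32) for Cripto KO. The relative Slc11a2, the general importer of ferrous iron, was not called, with values of 464, 513, 424 and 404. The magnesium carrier Slc41a1 was lower in both F/A libraries, at 378 and 355 against 1570.25 and 1078. Slc39a10 (951, 852, 2060.4 and 1636), a zinc importer, and Slc31a1 (928, 949, 1905 and 1736), the main copper importer, were called higher in WT, and their changes of 0.94 and 0.87 in Cripto KO stayed just under the threshold. The zinc exporter Slc30a1 was not called in either transition, at 1407, 1415.5, 977 and 819.5.

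Of the 24 carriers of inorganic ions, 7 (29.2%) were higher and 2 (8.33%) lower in WT F/A, against 18.5% and 17.3% of the background, and 4 (16.7%) were higher and 4 lower in Cripto KO, against 16.5% and 15.1%. The difference between the genotypes in these counts was not tested. Slc5a5, the sodium/iodide symporter of the thyroid (ENSMUSG00000000792, chr8:73406788-73416656 on the minus strand of NCBIM37), had values of 6.25, 13.8, 654 and 365. The log2 change was 6.71 (5.51 to 7.72) for WT and 4.73 (3.98 to 5.66) for Cripto KO. Slc4a4, a sodium bicarbonate cotransporter (chr5:89315843-89668678 on the plus strand), had 10.25, 18.8, 569 and 370, a change of 5.79 for WT and 4.30 for Cripto KO. Both genes were low in serum/LIF and had a higher value in F/A WT than in F/A Cripto KO. Within the same bicarbonate family Slc4a7 was also higher in F/A, at 2154 and 1881 against 723 and 751, whereas Slc4a8 (89.8 and 76 in F/A against 581 and 439) and Slc4a5 (303 and 119 in F/A against 653 and 433) were lower. The sodium/calcium exchanger Slc8a2 had 56.5, 47, 202 and 238. The sulfate carrier Slc26a2 and the cotransporters of chloride with cations, Slc12a2 and Slc12a4, were called higher in WT only, with log2 changes of 1.54, 1.19 and 1.15 there and of 0.71, 0.85 and 0.68 in Cripto KO. Slc20a1, the abundant phosphate carrier, had 4934, 5454, 4717 and 2704 counts, which made it lower in Cripto KO only, by a log2 change of −1.01 (−1.14 to −0.97). This call was lost when the trend over exonic length was removed and when the whole interval had to lie past 2-fold.

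Members of the same Slc5 family stood at opposite ends of both transitions. While Slc5a5 was higher in F/A, Slc5a11, a carrier of myo-inositol (ENSMUSG00000030769, chr7:130358294-130416767 on the plus strand), had 319 and 166 raw counts in serum/LIF and 3 and 4 in F/A, a log2 change of −6.63 (−8.83 to −4.99) for WT and −5.06 (−8.39 to −3.45) for Cripto KO. Slc5a3, the other myo-inositol carrier of the family, went up where Slc5a11 went down, with normalized counts of 135, 115, 374 and 300 and log2 changes of 1.47 and 1.38. Slc5a6, which takes up biotin and pantothenate, was not called (314, 314, 483 and 441). The upstream sequences of the opposed genes Slc5a5 and Slc5a11 were taken from RefSeq on GRCm38.p6, a newer build than that of the counts, and are shown because they lie far apart in CpG content. The 250 bases before each annotated start are printed 5′ to 3′ on the gene's strand with each CpG in capitals, chr8:70892758-70893007 for Slc5a5 and chr7:123214616-123214865 for Slc5a11.
Slc5a5: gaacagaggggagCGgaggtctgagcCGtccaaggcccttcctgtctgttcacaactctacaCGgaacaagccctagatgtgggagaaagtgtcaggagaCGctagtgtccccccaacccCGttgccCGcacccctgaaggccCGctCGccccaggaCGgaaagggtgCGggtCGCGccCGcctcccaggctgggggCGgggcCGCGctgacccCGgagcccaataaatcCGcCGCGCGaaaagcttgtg
Slc5a11: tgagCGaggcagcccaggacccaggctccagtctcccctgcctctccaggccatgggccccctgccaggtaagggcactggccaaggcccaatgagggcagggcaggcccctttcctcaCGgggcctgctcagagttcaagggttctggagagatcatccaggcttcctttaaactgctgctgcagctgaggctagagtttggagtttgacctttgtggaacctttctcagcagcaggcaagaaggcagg
The stretch of Slc5a5 holds 21 CpG and that of Slc5a11 only 2. Over the whole window of 300 bases, which runs 50 bases past the start, the observed to expected ratio of CpG was 0.862 and 0.0725. The groups lay closer together. Of the members, 81 had such a window, and the median ratio was 0.561 for the 9 members higher in both transitions, 0.644 for the 13 lower in both, 0.749 for the 41 called in neither and 0.589 for the 14861 protein-coding genes with a window. The 14861 genes were not held to the minimum count of the members.

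Most members for organic ions and all those for neurotransmitters were called, although these groups are small and depend on how carriers were assigned to roles. Of the 8 members for organic ions, carboxylates and peptides, 4 were higher and 3 lower in WT, against 18.5% and 17.3% of the background. In Cripto KO 3 were higher and 3 lower, against 16.5% and 15.1%. Slc22a23 and Slc22a17 reached the minimum count only in F/A, and Slc13a5, Slc47a1 and Slc17a9 only in serum/LIF. The minimum itself thus favoured calls in this group, and nothing is concluded from these shares. Slc13a5, the sodium-coupled importer of citrate, had 995 and 383 raw counts in serum/LIF and 2 and 6 in F/A. It showed the lowest log2 change of the WT transition, −8.74 (−11.8 to −6.92), and fell by 5.68 on the log2 scale in Cripto KO. Slc47a1, an exporter of organic cations known from kidney and liver, had 633 and 603 raw counts in serum/LIF, 4 in F/A WT, with 0 in F/A Cripto KO. In WT its log2 change was −7.16 (−9.0 to −5.76), and in Cripto KO it was at least 97.3-fold lower when the limit of 6 counts of that library is used. The orphan carrier Slc22a23 (44, 56, 1263 and 906) and Slc22a17, known as a receptor for lipocalin (120.5, 99.25, 631 and 603), were higher in F/A in both genotypes. Slc15a3, which moves peptides and histidine out of lysosomes, had 186.5, 175, 928 and 996, although 28.1% of its exonic bases overlap Tmem132a. Slc17a9, which loads ATP into vesicles, was lower in both transitions, from 463 to 160.2 in WT and from 443 to 42.0 in Cripto KO.

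All 4 members for neurotransmitters, creatine and osmolytes were called in both transitions, in the same directions. Of the background, 35.7% was called in WT and 31.6% in Cripto KO. Slc5a11 reached the minimum count only in serum/LIF and Slc5a3 only in F/A, so nothing is concluded from this share. The creatine carrier Slc6a8 had normalized counts of 1888, 1610.2, 862 and 789, a log2 change of −1.13 for WT and −1.03 for Cripto KO. The Cripto KO call was lost under scaling by library totals, TMM or DESeq2 factors and when the trend over length was removed, and both calls were lost when the whole interval had to lie past 2-fold and when the trend over median transcript length was removed. The inositol carriers Slc5a11 and Slc5a3 given above belong to this group as well.

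Amino acid carriers were the largest group, with 25 members. In WT 4 were higher, 2 lower and 19 (76%) not called, against 64.3% not called in the background. In Cripto KO 4 were higher, 5 lower and 16 (64%) not called, against 68.4%. Slc7a11, the antiporter that brings in cystine for glutathione synthesis (ENSMUSG00000027737, chr3:50168858-50247535 on the minus strand), was called in both, with normalized counts of 184.5, 295, 938.5 and 983. The log2 change was 2.35 (2.18 to 2.63) for WT and 1.74 (1.64 to 2.07) for Cripto KO. Slc38a3, a glutamine carrier of liver and kidney, had 53.8, 77.5, 257.5 and 87.8, and only the F/A WT library stood apart. The light chain Slc7a7 (921, 1477, 1959 and 1669) and the glycine carrier Slc6a9 (544, 724, 1119 and 1283) were called in WT, with 45.9% of the exonic bases of Slc6a9 overlapping Ccdc24. In Cripto KO the light chain Slc7a6, with 1112, 1006, 1646 and 2068, and Slc1a4, with 1808, 1823, 3012 and 4096, passed the threshold at log2 changes of 1.04 and 1.17, and both were below it in WT at 0.57 and 0.74. The brain proline carrier Slc6a7 was lower in both transitions, with 243 and 173 raw counts in serum/LIF and 9 and 16 in F/A. So was Slc1a1, a carrier of glutamate, with 297 and 95 raw counts in serum/LIF and 11 and 16 in F/A.

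Several abundant amino acid carriers stayed under 2-fold in both transitions. Slc1a4 and Slc7a7, also among the 10 members of highest level, did not, and were called in Cripto KO and in WT, as given above. Slc3a2 had a log2 change of −0.52 (−0.55 to −0.45) for WT and −0.47 (−0.55 to −0.43) for Cripto KO, and Slc7a5 of 0.74 (0.66 to 0.76) and 0.57 (0.53 to 0.63). The intervals of these partners lay on opposite sides of 0 in both genotypes, but no change reached 2-fold. Slc1a5, the exchanger of glutamine and other neutral amino acids, was at 1885, 2524, 1322 and 1505. Slc38a1 was at 3205, 4452, 5582 and 5473, Slc7a1 at 5763, 5999, 7902 and 6395, and Slc7a3 at 3832, 3737, 2942 and 2628. None of these 4 genes was called in any of the comparisons.

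The upstream windows of 4 members hold the letters TGATGCAA on either strand, a form of the amino acid response element that the factor ATF4 binds, namely those of Slc1a4, Slc7a7, Slc7a11 and Slc50a1. They are shown because Slc7a11 was called in both transitions, Slc7a7 in WT and Slc1a4 in Cripto KO, whereas the sugar carrier Slc50a1 was called in neither. Each line gives 60 bases from RefSeq on GRCm38.p6, 5′ to 3′ on the gene's strand, with the element in capitals, from chr11:20332684-20332743 for Slc1a4, chr14:54417912-54417971 for Slc7a7, chr3:50443637-50443696 for Slc7a11 and chr3:89270726-89270785 for Slc50a1, all on the minus strand.
Slc1a4: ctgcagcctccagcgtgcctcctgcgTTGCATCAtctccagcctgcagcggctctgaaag
Slc7a7: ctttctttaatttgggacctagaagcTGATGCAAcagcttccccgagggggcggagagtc
Slc7a11: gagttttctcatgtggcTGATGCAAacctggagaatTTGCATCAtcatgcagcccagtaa
Slc50a1: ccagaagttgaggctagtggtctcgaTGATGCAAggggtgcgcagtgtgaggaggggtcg
The stretch of Slc7a11 holds the element on each strand, 2 copies in all. A window held the element in 4.94% of the 81 members and in 158 (1.06%) of the 14861 protein-coding genes with a window. The E-box CACGTG was in 17.3% and 9.34% and the GC box GGGCGG in 77.8% and 51.4%. TATAAA was in 12.3% and 14.4% and the antioxidant element TGACNNNGC in 23.5% and 15.1%, both strands counted. These are shares of genes, some with several windows. The 14861 genes were not held to the minimum count of the members, so these shares are not matched. A match describes the letters and is not a site, and the motifs were chosen with results of these data known. Of 18 other genes that respond to amino acid shortage, 3 (16.7%) were higher and 1 (5.56%) lower in WT F/A, against 18.5% and 17.3% of the background. In Cripto KO F/A 1 was higher and 1 lower, against 16.5% and 15.1%. The median log2 changes of these 18 genes were 0.18 and 0.28.

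Carriers of nucleosides and vitamins had lower calls only in these transitions, 3 of 10 members (30%) in WT and 5 (50%) in Cripto KO. In the background 17.3% and 15.1% were called lower. Slc28a1 reached the minimum count only in serum/LIF, and Slc23a1 only in serum/LIF Cripto KO. The minimum itself thus favoured lower calls in this group, and nothing is concluded from these shares. Slc28a1, which couples the uptake of pyrimidine nucleosides to sodium, had 470 and 439 raw counts in serum/LIF and 19 and 16 in F/A. Its log2 change was −4.46 (−5.19 to −3.78) for WT and −4.58 (−5.95 to −3.74) for Cripto KO. Slc29a1, the main equilibrative nucleoside carrier (chr17:45722149-45736555 on the minus strand), had normalized counts of 4421, 4313, 1472 and 1331, the largest loss in counts among the members called lower. The thiamine carrier Slc19a2 was at 1949, 1638, 772 and 603. Of the vitamin C carriers, Slc23a2 had 1392, 1477, 724 and 456, and Slc23a1 had 45.5, 274, 54.8 and 28. The library of Slc23a1 that stood apart was serum/LIF Cripto KO. Among the other 3 the F/A Cripto KO value was the lowest, with a log2 ratio of −0.97 (−2.23 to −0.27) to F/A WT that stayed just under the threshold. The folate carrier Slc19a1 stayed just under the threshold, with log2 changes of 0.95 and 0.97.

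Of the 8 lipid and choline carriers, 2 (25%) were called lower in WT, against 17.3% of the background. In Cripto KO 3 (37.5%) were lower and 1 (12.5%) higher, against 15.1% and 16.5%. Slc44a4, a choline-like carrier of epithelia, had 207 and 119 raw counts in serum/LIF and 27 and 20 in F/A, and Slc10a7, of the bile acid family, had 780 and 656 in serum/LIF and 296 and 272 in F/A. Slc27a2, an acyl-CoA synthetase for long fatty acids, was called in Cripto KO only and is taken up with the genotypes. Among the 4 sugar carriers outside Slc2, Slc37a1 was lower in both transitions (438, 383, 175.5 and 110 normalized counts) and Slc45a4 in WT only. None of the 5 carriers of nucleotide sugars and acetyl-CoA in the ER and Golgi was called in any comparison, and their log2 changes lay between 0.08 and 0.17 in WT. Over the members listed as mainly inside the cell, calls made up 25.8% in WT and 19.4% in Cripto KO. Over the 80 members outside that list they made up 43.8% and 46.2%, with 35.7% and 31.6% in the background. The difference between these groups was not tested. The mitochondrial family Slc25, kept out of the members, had 2 higher and 11 lower of 32 genes with the same minimum in WT and 4 higher and 7 lower in Cripto KO. The background shares were 18.5% higher and 17.3% lower in WT and 16.5% and 15.1% in Cripto KO.

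**Figure D4:**
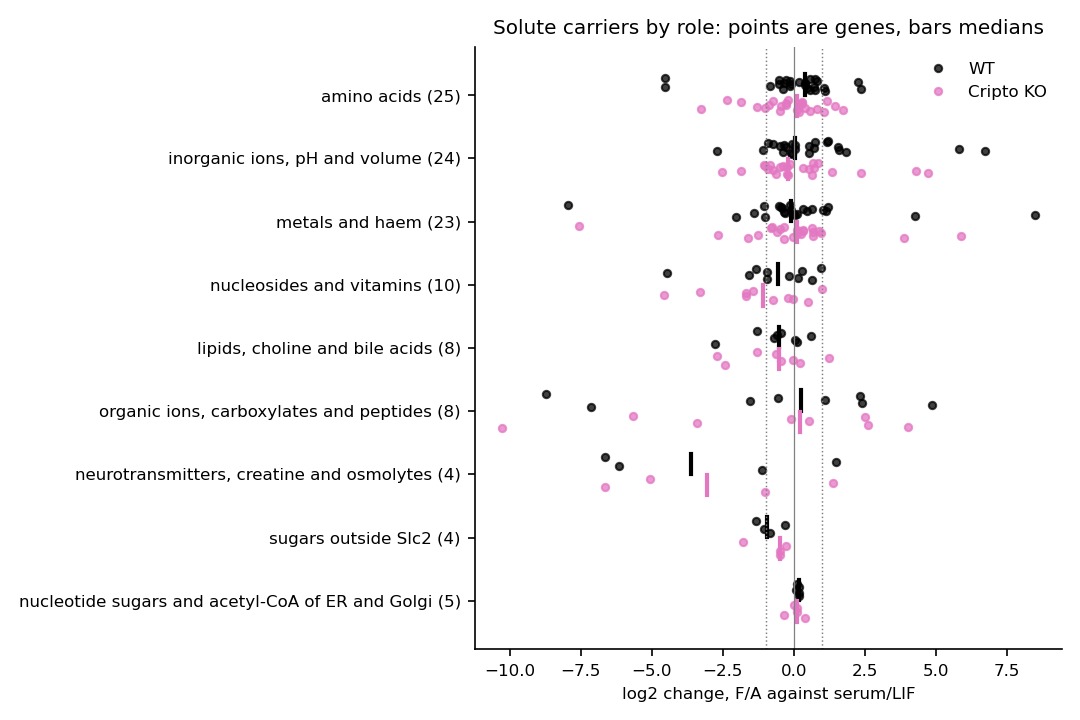
Log2 change of F/A against serum/LIF for each member, grouped by role with the number of members in parentheses, black for WT and pink for Cripto KO, with a bar at each median and dotted lines at 2-fold. The carriers of nucleotide sugars lie within 2-fold, while metals, inorganic ions and organic ions spread from −2.53 or lower to 4.02 or higher in both genotypes.

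The partner proteins of the carriers were counted in the same way. Of 11 partner proteins of carriers with the minimum count, 6 (54.5%) were higher in WT F/A and 7 (63.6%) in Cripto KO F/A, against 18.5% and 16.5% of the background, and none was lower. Heph, Slc9a3r2, Cd44 and Stk39 reached the minimum count only in F/A, where they were high. The minimum itself thus raised these shares, and nothing is concluded from them. Heph, or hephaestin, the ferroxidase that works with ferroportin, had 8 and 2 raw counts in serum/LIF and 309 and 268 in F/A, in the same direction as Slc40a1. Cd44, which stabilizes Slc7a11 at the surface, had 145, 156, 824 and 656 raw counts. Stk39, a kinase that activates Slc12a2, had 71, 74, 479 and 716 raw counts. Oxsr1, on the same list, had fewer raw counts in F/A, at 2580, 2538, 1632 and 1414, and was not called. This list was chosen with earlier results of these data known, and its counts are a description.

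The response of the members to the change of medium was compared between the genotypes by the log2 change in Cripto KO minus that in WT. The median difference was −0.17 over the members and 0.01 over the background, and 73 members had a negative difference. A difference of at least 1 in size was found for 16 members (14.4%) and for 9.22% of the background. Of the 16, 11 were negative and 5 positive, and in 9 of them, 8 negative and 1 positive, the counting intervals of the transitions did not overlap. The 8 were Slc23a1 (−3.56), Slc39a8 (−2.60), Slc27a2 (−2.10), Slc38a3 (−2.08), Slc17a9 (−1.87), Slc36a1 (−1.58), Slc39a14 (−1.26) and Slc39a4 (−1.23), and the 1 was Slc43a1 (1.08). Of these, Slc23a1, Slc38a3 and Slc43a1 each reached the minimum count in a single library, the one in which it was highest. The positive differences of Slc13a5, Slc1a1, Slc5a11 and Slc6a7 rest on 2 to 16 raw counts in F/A, and their intervals overlapped. The difference went with gene length across the background, with a Spearman rho of −0.45 over 10396 genes, so longer genes tended to more negative differences. The median exonic length was 4250 bases in the members and 3987 in the background, and the part of length in the members' median was not tested.

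**Figure D5:**
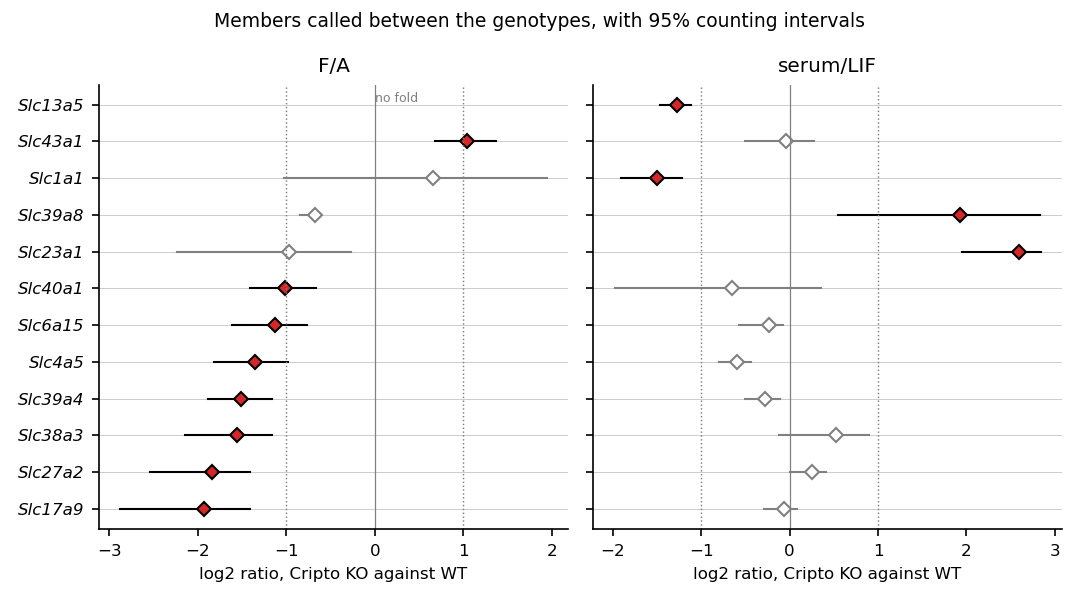
Log2 ratio of Cripto KO to WT in F/A (left) and serum/LIF (right) for the 12 members called between the genotypes in either medium. Diamonds are ratios of normalized counts, filled where called, lines are 95% counting intervals of the scaled raw counts, and Slc13a5 is given no fold in F/A because both libraries were at or under their count limit; 7 of the 8 members called in F/A lie left of 0.

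In F/A, Cripto KO cells differed from WT cells in few members and mostly downward. Only Slc43a1 (0.901% of the members) was called higher, against 1.62% of the background, and 7 members (6.31%) were called lower, against 2.3%. Slc43a1 reached the minimum count only in F/A Cripto KO, and Slc38a3 and Slc40a1 only in F/A WT. Each thus passed through the library in which it was higher. Of the 111 members, 71 (64.0%) had a lower value in F/A Cripto KO, and 48.3% of the background had. Slc43a1, a carrier of large neutral amino acids, had normalized counts of 143 in WT and 295 in Cripto KO cells, with a log2 ratio of 1.04 (0.68 to 1.37). Slc17a9 had 160.2 and 42.0, a ratio of −1.93 (−2.87 to −1.41), and Slc27a2 had 236 and 66.0, a ratio of −1.84 (−2.54 to −1.41). Both belong to proteins of internal membranes, of vesicles and of ER and peroxisomes. The glutamine carrier Slc38a3 (257.5 and 87.8) and the zinc importer Slc39a4 (448 and 157.5) followed at ratios of −1.55 and −1.51. Slc4a5, a bicarbonate cotransporter, had 303 and 119, and Slc6a15, a carrier of branched-chain amino acids, had 264 and 121. Ferroportin, Slc40a1, was the last of the 7 at 314.5 and 155, a ratio of −1.02 (−1.41 to −0.67), and this call was lost when 5 was added to every value. The genes with the strongest rise in F/A were lower in Cripto KO as well, but by less than 2-fold, with ratios of −0.68 (−0.85 to −0.62) for Slc39a8, −0.84 (−1.08 to −0.60) for Slc5a5 and −0.62 (−0.85 to −0.36) for Slc4a4. This comparison shares its libraries with the transitions above and is no independent evidence of them.

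Markers of other cells moved between the F/A libraries as well. From WT to Cripto KO the summed primed epiblast markers went from 1227 to 638 cpm, trophoblast markers from 88.0 to 220.3, posterior mesoderm markers from 28.8 to 175, fibroblast markers from 72.2 to 189, primitive endoderm markers from 126 to 175, neural markers from 322 to 302 and naive markers from 28.9 to 45.5. Hand1, with 196 and 1730 raw counts, stands in the lists of both trophoblast and posterior mesoderm, and without it these sums went from 75.1 to 110.4 and from 15.9 to 65.3. Of the other trophoblast markers, Cdx2 had 104 and 674 raw counts, Gata3 238 and 252, Krt7 769 and 802, Ascl2 31 and 10, and Elf5 2 and 0. Among the mesoderm markers Hoxb9 had 19 and 398 and Msx2 131 and 562. The naive sum was higher in Cripto KO through Tbx3, with 290 and 536 raw counts, and Klf4, with 103 and 158, whereas Zfp42, Esrrb and Prdm14 (6 and 0) had lower counts there and Nr0b1 was at 0 in both. The part of these cells in the differences of the carriers was not tested. Subtracting the running median over exonic length from each log2 ratio left 57.7% of the members below 0 in F/A, against 49.8% of the background.

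In serum/LIF the genotypes differed in 4 members. Called higher in Cripto KO were 2 (1.80%), against 0.635% of the background, and called lower 2 (1.80%), against 0.683%. Slc23a1 reached the minimum count only in serum/LIF Cripto KO and Slc1a1 only in serum/LIF WT, each the library in which it was higher. Slc23a1, the vitamin C carrier of kidney and gut had 53 raw counts in WT and 260 in Cripto KO, a log2 ratio of 2.59 (1.95 to 2.84). Slc39a8, still low in both, had 10 and 29, a ratio of 1.93 (0.55 to 2.83). The glutamate carrier Slc1a1 was lower, with 297 and 95 and a ratio of −1.50 (−1.90 to −1.22), and so was the citrate carrier Slc13a5, with 995 and 383 and a ratio of −1.28 (−1.46 to −1.12). All 4 also had a difference between the transitions of at least 1, and these comparisons share libraries. Exonic bases of Slc13a5 overlap another gene by 11.7%, those of Slc27a2 by 11.2% and those of Slc5a3 by 11.2%, and without the strand of the counting, reads of such genes cannot be told apart.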

How the data were processed

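RNA of 4 cultures was sequenced as paired-end reads, with 1 library per condition. Per the labels and the study's methods, the authors aligned the reads to mm9 (NCBIM37) with TopHat2 2.0.13, counted them per gene with HTSeq 0.6.1p1 on an Ensembl annotation of that build, and deposited whole-number counts; whether strand was used in counting is not given in the sources used here. The authors also deposited a normalized signal, the full quantile-normalized counts of the genes that passed their filter on low expression, and recomputing it from the counts left 0 values that differed by over 0.01. A total of 0 columns had no sample and 0 rows named no gene.

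Columns were matched to cultures by name. Symbols, coordinates and merged exon lengths came from a GENCODE annotation of NCBIM37, which named 15424 (99.8%) of the genes of the normalized table. Calls were made over that table with Python 3.11.15, numpy 2.4.6, pandas 2.3.3 and scipy 1.17.1, and percentages of called genes over the 10396 protein-coding genes with at least 200 counts in at least 1 library. A count of 0 was replaced by 0.5 on the log2 scale, and detection limits were 3 counts, or 6 in F/A Cripto KO. The simulated replicates of the study's own test were not used. The interval and the call were tried on simulated counts that held counting error only, which cannot show how far cultures of the same condition differ. The median half-width of the members' intervals on the log2 scale was 0.20 in the WT transition and 0.25 in that of Cripto KO, and 0.23 and 0.18 between genotypes in F/A and serum/LIF; these cover counting error only, and abundant genes are measured more precisely than genes with few counts.

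Genes were named when they were among the 8 called members with the largest change in a direction of a comparison, among the 10 of highest level, called in opposite directions in the transitions, next to the minimum count, or on a fixed list of well-known carriers. Values of some single genes are not reported here. The members, lists and rules were chosen with earlier results of these data known. Upstream sequences came from RefSeq windows of GRCm38.p6 and matched 81 of the 111 members. Alternatives were scaling by library totals, by the TMM factors of edgeR 4.0.16 or by DESeq2 1.42.0 (run in R 4.3.3), values raised by 5 before the log, other minimum counts and call rules, counts of F/A Cripto KO not halved, a running median over 501 genes ordered by exonic length removed, and newer symbols; the same running median over median transcript length was added after seeing the data. Figures were drawn with matplotlib 3.10.9.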

Additional observations from a re-analysis of the deposited data

Results flagged for a closer look

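A total of 4 members had counting intervals on opposite sides of no change in the transitions of WT and Cripto KO, and none of these changes reached 2-fold. For Slc38a2, the abundant glutamine and alanine carrier, the log2 change of F/A against serum/LIF was 0.17 in WT and −0.26 in Cripto KO. Slc35a3, a carrier of UDP-N-acetylglucosamine in the Golgi, had 0.17 in WT and −0.34 in Cripto KO, and Slc44a1, a choline carrier, had 0.04 and −0.45. Slc39a11, a zinc carrier, went the other way, with −0.35 in WT and 0.25 in Cripto KO. With 1 library per condition these differences were not tested.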

How the results depend on the processing

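Of the 98 calls of members over the 4 comparisons, none turned its direction under any alternative run; a mean of at least 200 counts left only 76 of them to compare. Of the 67 calls of named members, 65 were kept under each of total-count scaling, TMM factors and DESeq2 size factors, and the calls lost were those of Slc6a8 and Slc6a15 in the Cripto KO transition. These scalings moved the median of the background by at most 0.08 on the log2 scale. With 5 added to every value 65 were kept, with at least 3-fold asked for 47, with the whole interval past 2-fold 56, with the running median over exonic length removed 64, and with that over median transcript length, chosen after seeing the data, 59. All 67 were kept with F/A Cripto KO counts left whole and with newer symbols. Among the genotype calls in F/A, that of Slc40a1 was lost with 5 added and with median transcript length removed, and that of Slc6a15 with the latter. The counts of called members moved by over 1.5 times as follows. With no minimum count, over 175 genes, 37 were higher and 44 lower in WT, 29 and 47 in Cripto KO, 4 and 16 between genotypes in F/A, and 5 lower in serum/LIF Cripto KO. With a mean of at least 200 counts, the F/A comparison had 0 higher in Cripto KO, and 1 was higher and 1 lower in serum/LIF. With at least 3-fold, 10 were higher and 12 lower in WT, 9 higher in Cripto KO, 0 higher and 2 lower in F/A Cripto KO against WT, and 0 lower in serum/LIF. With the whole interval past 2-fold, 0 were higher and 4 lower in F/A Cripto KO against WT and 1 was higher in serum/LIF, and with the fold alone 2 were higher in F/A Cripto KO, because Slc13a5 with 2 and 6 raw counts then passed. No paired analysis was possible because the calls come from no test and each condition has 1 library, and for the same reason no library could be left out; a fit of the medium over all 4 libraries with genotype as a second term, which takes the difference between the genotypes as error, was not run. Depth limits carriers with under 20 counts in a library, whose intervals span more than 1 unit of log2.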
